A study of Mus musculus with 12 samples.

Results

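The enzymes described here remove superoxide, hydrogen peroxide and lipid peroxides, or make and recycle the thiols (thioredoxin and glutathione) that these enzymes consume. The set holds 33 named genes of superoxide, peroxide, thioredoxin, glutathione and NRF2 function, taken by symbol, and all 33 were among the 24421 genes of the count files. Islets, the hormone-secreting clusters of the pancreas, were taken from mice on a high-fat diet for 6 weeks and sequenced in bulk. In the 6 libraries called BKO, interleukin-22 receptor subunit alpha 1 was deleted in β cells (Il22ra1βKO). The 6 libraries called Cre came from Ins2Cre mice, the controls, which carry a recombinase driven from an insulin promoter; both groups received the same diet. The labels used here give no age, sex or strain, and do not tell if a library stands for 1 animal, so the p-values below cover the spread among these libraries, which may be technical. Because whole islets were sequenced, transcripts of β cells were measured together with those of all other islet cells.

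Superoxide dismutases turn superoxide into hydrogen peroxide. Catalase, glutathione peroxidases and peroxiredoxins then remove the peroxide. Glutathione peroxidases and peroxiredoxins draw the electrons for this from NADPH, through glutathione reductase or thioredoxin reductase. The transcription factor NRF2 (Nfe2l2) raises many of these genes when its partner KEAP1, which otherwise marks it for degradation, is oxidised. Pancreatic β cells are known for low catalase and glutathione peroxidase, and are therefore often studied as cells sensitive to peroxide.

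Gene reads per library numbered 10356093 to 11902217 in BKO libraries and from 11444273 to 12397139 in Cre libraries. Il22ra1 itself had between 1 and 5 reads in each of the 12 libraries, so its loss could not be read from these counts. Markers of several other cell types had fold changes mostly of 1 sign, and no marker passed the test. At an unadjusted p under 0.05 by edgeR, 11 of 12 endothelial, 7 of 12 stellate and 6 of 9 other endocrine markers were higher. Of 10 duct markers 4 were higher (6 were positive), and of 14 acinar markers 0, beside 8.70% of all genes. β-cell markers were lower in 3 of 10, beside 4.66% of all genes. Among 9 leukocyte markers 1 was higher and 2 were lower. All 12 endothelial markers had a positive log2 fold change, with a summed level of 602 to 863 CPM (read counts scaled to library size) in BKO and 475 to 682 CPM in Cre. Of 12 stellate and mesenchymal markers 11 were positive, at 176 to 264 against 129 to 230 CPM. All 14 acinar markers were positive, at 1596 to 5718 against 259 to 7280 CPM, and 8 of 9 markers of the other endocrine cells were positive. Of 10 β-cell markers 9 were negative, at 97991 to 156260 against 121158 to 152444 CPM. Ins2 had the highest mean level of these 10. No endothelial, stellate, acinar, duct, β-cell or other endocrine marker was at 0 reads over the libraries. In bulk samples fewer cells of a type and less RNA per cell cannot be told apart.

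No antioxidant gene passed the test between genotypes, and most of the set lay within a narrow band around equal levels. Of the 33 members, all of which passed the filter on low counts, 0 were called by edgeR's quasi-likelihood test at an adjusted p under 0.05, against 0% of 13583 genes tested. At an unadjusted p under 0.05 there were 3 members (9.09%), against 13.4% of all genes. Of these, 2 were higher (Gsta4 and Slc7a11), against 8.70% of all genes, and 1 was lower (Txn2), against 4.66%. DESeq2 called 1 member, Gsta4, against 1.50% of the genes for which it gave an adjusted p, and limma-voom called 0. In no member were the libraries of the groups fully apart, against 0.508% of all genes. The median log2 fold change of the 33 was 0.039, beside 0.0078 for all genes tested, with 23 positive and 10 negative. For 22 members the 95% interval of the fold, from the same fit, lay wholly between 0.8 and 1.25. The intervals of the other 11 reached past 1 of these bounds, so a difference of that size was not excluded by these libraries for them.

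**Figure D1:**
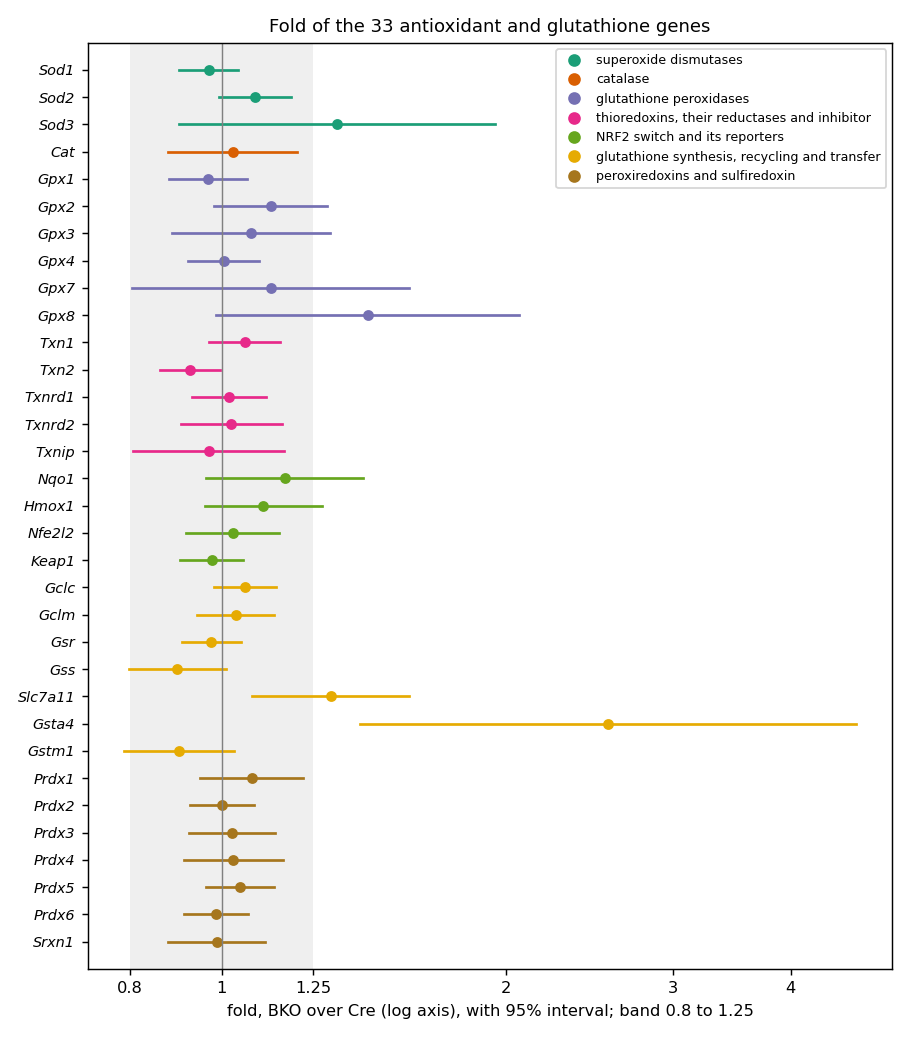
Fold of BKO over Cre for each of the 33 genes on a log axis, coloured by role; points are the fitted fold and lines its 95% interval, with a grey band from 0.8 to 1.25. Intervals of 22 genes lie inside the band, while Gsta4 stands farthest to the right at 2.56.

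Levels spanned more than 2 orders of magnitude when scaled to the length of each gene's exons. On that scale (RPKM, CPM per kilobase of exon, means of 6 Cre libraries), Gpx3, the secreted glutathione peroxidase, was the most abundant at 340.1. It was followed by the lipid peroxidase Gpx4 at 127, the haem-degrading enzyme Hmox1 at 112.0, cytosolic thioredoxin Txn1 at 107 and the cytosolic peroxidase Gpx1 at 103. In the Cre libraries each of these 4 overlapped its neighbour in this order, whereas the lowest library of Gpx4 (113 RPKM) was above the highest of Gpx1 (111 RPKM). Copper-zinc dismutase Sod1 stood at 61.9 RPKM and mitochondrial manganese dismutase Sod2 at 11.5. Their pooled exon lengths were 3970 and 10008 bases, and their Cre means before scaling to length were 246 and 115 CPM. Catalase, Cat, stood at 5.30 RPKM, the 27th of the 33 in this order. At the low end were Gpx8 (1.82), Gpx7 (1.51), Gsta4 (1.49), Slc7a11 (1.25) and the extracellular dismutase Sod3 (0.718). Exon lengths pool every annotated transcript, which understates genes with long rare exons such as Slc7a11, and 29 of the 33 exceeded 10 CPM in every library.

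**Figure D2:**
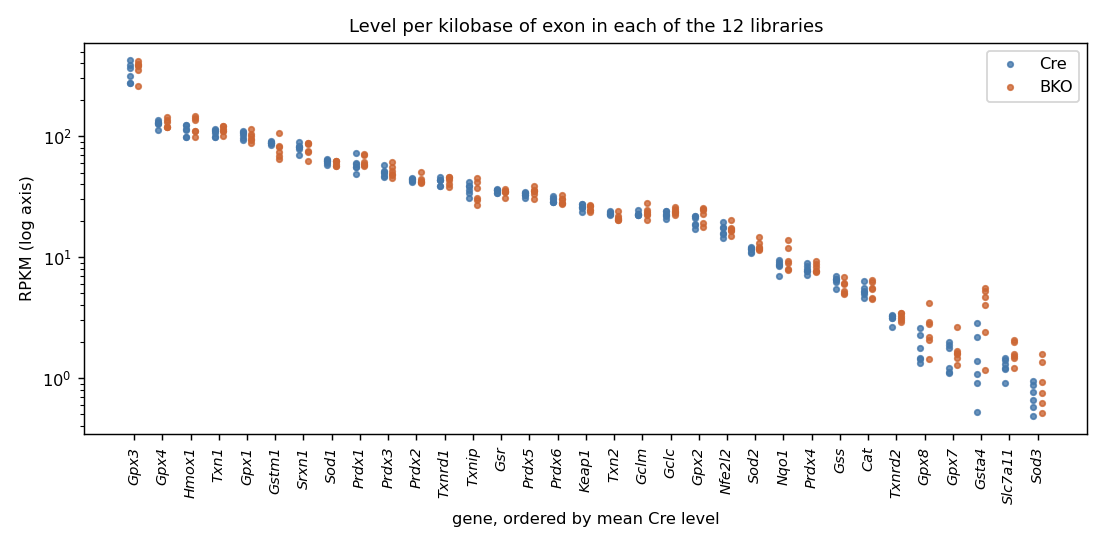
RPKM of each gene in every library (log axis), ordered by the mean of the Cre libraries; blue points are the 6 Cre and orange points the 6 BKO libraries. The groups overlap in every gene, from Gpx3 at 340.1 RPKM to Sod3 at 0.718 RPKM in Cre.

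The genes of glutathione supply and use held both of the members with a higher value and an unadjusted p under 0.05. Gsta4 encodes an alpha-class glutathione transferase that conjugates 4-hydroxynonenal, an aldehyde formed from peroxidised lipid. It had 1.48, 3.02, 5.07, 5.95, 6.62 and 6.98 CPM in the BKO libraries, and from 0.662 to 3.62 CPM in Cre with a median of 1.56. Of the 6 BKO libraries 4 exceeded the highest Cre library, Cre-5, while BKO-3 (3.02 CPM) and BKO-4 (1.48 CPM) lay inside the Cre range. The log2 fold change was 1.36 ± 0.41 (SE; adjusted p = 0.192 by edgeR, exact two-sided permutation p = 0.0238), a fold of 2.56 with a 95% interval of 1.40 to 4.69. DESeq2 gave an adjusted p of 0.0366. Without BKO-4, the lowest BKO library in this gene, edgeR gave 1.53 with an adjusted p of 0.0337. Leaving out BKO-4 was bound to raise the value, and the same fit called 262 genes in all. No fit with another library left out called Gsta4. The gene rests on 8 to 79 reads a library and lies on chromosome 9 from 78182774 to 78209349 (mm10, plus strand) with no exon shared with another gene.

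Slc7a11 encodes xCT, the cystine-glutamate antiporter that brings in the cysteine needed for glutathione. Its BKO libraries ran from 16.8 to 28.5 CPM with a median of 21.7, and its Cre libraries from 12.7 to 20.4 CPM with a median of 17.6. BKO-6 and BKO-2 were highest, and Cre-4 lowest. The log2 fold change was 0.38 ± 0.13 (adjusted p = 0.224 by edgeR, 0.148 by DESeq2; exact two-sided permutation p = 0.0325), a fold of 1.30 with an interval of 1.08 to 1.58. Its partner subunit Slc3a2, chosen after its value was seen, had a fold of 1.03 with an interval of 0.904 to 1.17. Both Gsta4 and Slc7a11 moved toward equal levels when the endothelial score, the mean log2 CPM of the 12 markers, was a covariate: 0.47 for Gsta4 (adjusted p = 0.984) and 0.032 for Slc7a11 (adjusted p = 0.992). That score was itself 5.50 in BKO and 5.07 in Cre. A covariate that differs between the groups can absorb some of the difference between them. Gsta4 was at 1.26 and Slc7a11 at 0.37 with the acinar score as covariate instead, neither past the test. Of the 53 genes named or listed as members, 31 came nearer 0 by over 1.5 times or changed sign with the endothelial covariate. Another 10 moved away from 0 by over 1.5 times. Among these 10 were Nqo1 (0.35), Gpx2 (0.26) and Txn2 (-0.19), and among the 31 Sod2 (0.021), Hmox1 (0.082) and Gstm1 (-0.037). The same count over all genes was not made. Of all 13583 genes, 453 had an unadjusted p under 0.05 by edgeR with this covariate and 1815 without it.

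**Figure D3:**
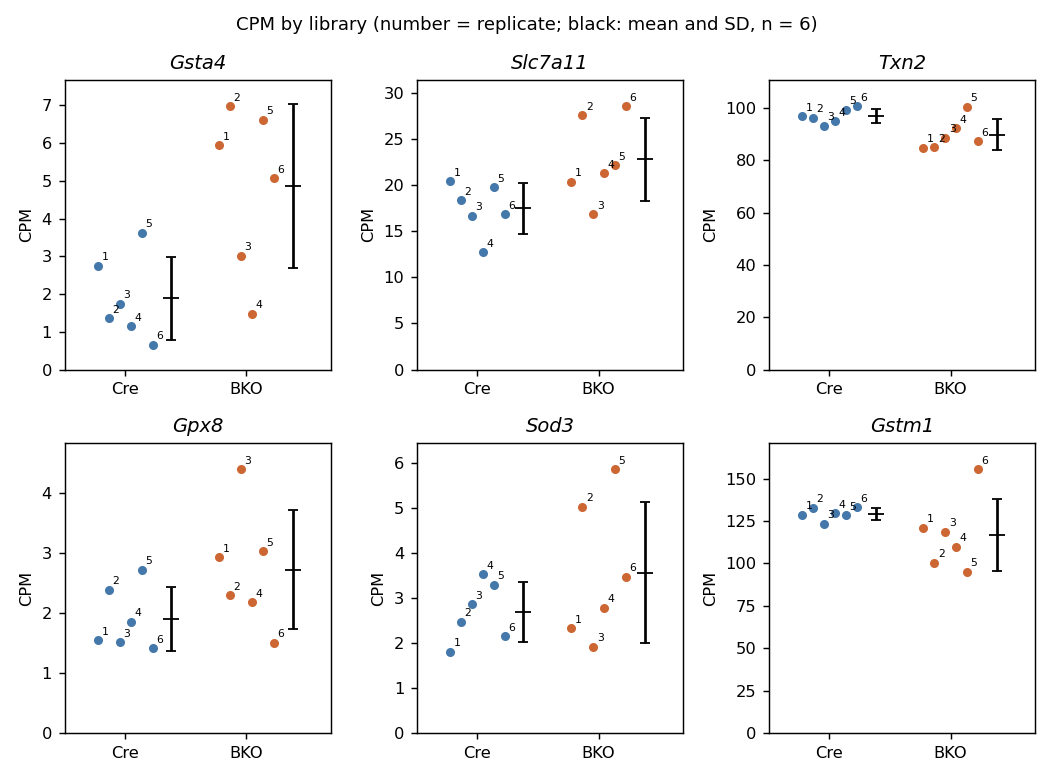
CPM in each library for 6 members, with the replicate number beside each point and the mean and SD (n = 6) in black; each axis starts at 0. Gsta4 ranges from 1.48 to 6.98 CPM in BKO and from 0.662 to 3.62 CPM in Cre, and Gstm1 is spread from 95.2 to 155.5 CPM in BKO but from 123 to 133 CPM in Cre.

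The other 5 members of this group did not pass edgeR's test either, and the intervals of Gss and Gstm1 reached below 0.8. Glutamate-cysteine ligase, the first and limiting enzyme of glutathione synthesis, has a catalytic subunit Gclc, with a fold of 1.06 (0.982 to 1.14), and a modifier subunit Gclm, with a fold of 1.03 (0.941 to 1.14). Glutathione synthetase Gss, the enzyme of the second step, had a fold of 0.898 (0.797 to 1.01), with BKO libraries from 29.4 to 40.6 CPM (median 33.5) and Cre libraries from 32.2 to 40.9 CPM (median 38.5). Glutathione reductase Gsr, which regenerates the reduced form, had a fold of 0.976 (0.908 to 1.05). Gstm1, a mu-class transferase, had a wide spread in BKO. Its Cre libraries lay between 123 and 133 CPM, a coefficient of variation of 2.72%, while 5 BKO libraries lay below all of them (95.2 to 121 CPM) and BKO-6 above all of them (155.5 CPM), a coefficient of variation of 18.4%. The log2 fold change of Gstm1 was -0.15 ± 0.091 (adjusted p = 0.525 by edgeR, exact two-sided permutation p = 0.141), and -0.26 without BKO-6. Since mu-class genes are near copies of each other, the split of reads between them is uncertain.

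Promoter sequence was read for 27 of the 33 members from RefSeq windows on GRCm38.p6, the 250 bases before each gene's start. The 6 without a window were Sod3, Gclc, Gsr, Gsta4, Hmox1 and Prdx6. Slc7a11 is shown because it was the member with the second smallest p and the 1 of the 27 with the core of the amino acid response element, TGATGNAA, searched on both strands. That core occurs in 3.45% of 32851 windows and is known as a binding site of ATF4, a factor that also drives cystine uptake. The stretch covers bases 125 to 6 before the start, on chr3:50443619-50443738, minus strand, written 5′ to 3′ along the gene with the matches in capitals.
Slc7a11: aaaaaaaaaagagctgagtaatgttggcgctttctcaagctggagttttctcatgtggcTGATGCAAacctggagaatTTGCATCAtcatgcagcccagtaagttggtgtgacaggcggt
The window holds the core on each strand, starting 66 and 47 bases before the start. These matches are a description and do not show that a factor was bound in these islets.

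The core of the antioxidant response element, to which NRF2 binds, was searched as TGACNNNGC on both strands and occurs in 10.2% of the same windows. Among the members 5 of 27 held it. Percentages of windows, here and for the core above, cannot be set directly against counts of genes, since the 27 genes had 33 windows. The 5 are shown so that the site can be set beside the value of each gene. Each stretch has 8 flanking bases on each side, with the match in capitals. Each is written along its gene, and all but that of Nfe2l2 are on the opposite strand of the gene.
Prdx1 (chr4:116685458-116685482): gggaaagcGCTGAGTCAtcccccgt
Gclm (chr3:122245415-122245439): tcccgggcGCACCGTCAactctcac
Txnrd1 (chr10:82859106-82859130): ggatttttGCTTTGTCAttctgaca
Sod1 (chr16:90220698-90220722): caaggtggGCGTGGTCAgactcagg
Nfe2l2 (chr2:75704887-75704911): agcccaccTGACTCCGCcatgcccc
Only the Prdx1 match among these 5 also holds the AP-1 core TGANTCA. Folds of the 5 genes ran from 0.969 (Sod1) to 1.08 (Prdx1), and no interval among them left out equal levels. The Txnrd1 site precedes 1 of that gene's 3 listed starts.

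NRF2 itself and the genes best known as its targets did not pass the test. Nfe2l2 had 56.7 to 77.4 CPM in BKO (median 64.3) and 54.4 to 73.5 CPM in Cre (median 62.9), a fold of 1.03 (0.917 to 1.15). Keap1, its inhibitor, had a fold of 0.976 (0.904 to 1.05). The groups overlapped almost completely in both genes. The quinone reductase Nqo1 had 12.1 to 21.3 CPM in BKO (median 14.1) and 10.9 to 14.7 CPM in Cre (median 13.4), with only BKO-3 and BKO-6 above every Cre library. Its log2 fold change was 0.22 ± 0.13 (adjusted p = 0.505 by edgeR) and 0.11 without BKO-3 or 0.15 without BKO-6. Hmox1, which releases iron and carbon monoxide from haem, had 173 to 259 CPM in BKO (median 216) and 174 to 217 CPM in Cre (median 198), with a log2 fold change of 0.15 ± 0.097 (adjusted p = 0.569 by edgeR). It was 0.074 without BKO-2 and 0.091 without BKO-4. The BKO libraries above every Cre library in Hmox1 were BKO-2, BKO-4 and BKO-5. In Gclm only BKO-6 (176 CPM) and BKO-3 (154 CPM) exceeded the Cre range of 139 to 153 CPM, while BKO-1 was lowest (127 CPM). In Gclc only BKO-3 (98.0 CPM) and BKO-6 (93.3 CPM) exceeded the Cre range of 78.5 to 90.6 CPM. The pair that exceeded the Cre range was thus the same in Nqo1, Gclm and Gclc, and other libraries did so in Hmox1. In Txnrd1 BKO-6 (327 CPM) and BKO-2 (326 CPM) exceeded the Cre range, whereas BKO-3 (269 CPM) lay below it. No BKO library exceeded the Cre range in Srxn1. Whether these genes vary together was not tested.

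**Figure D4:**
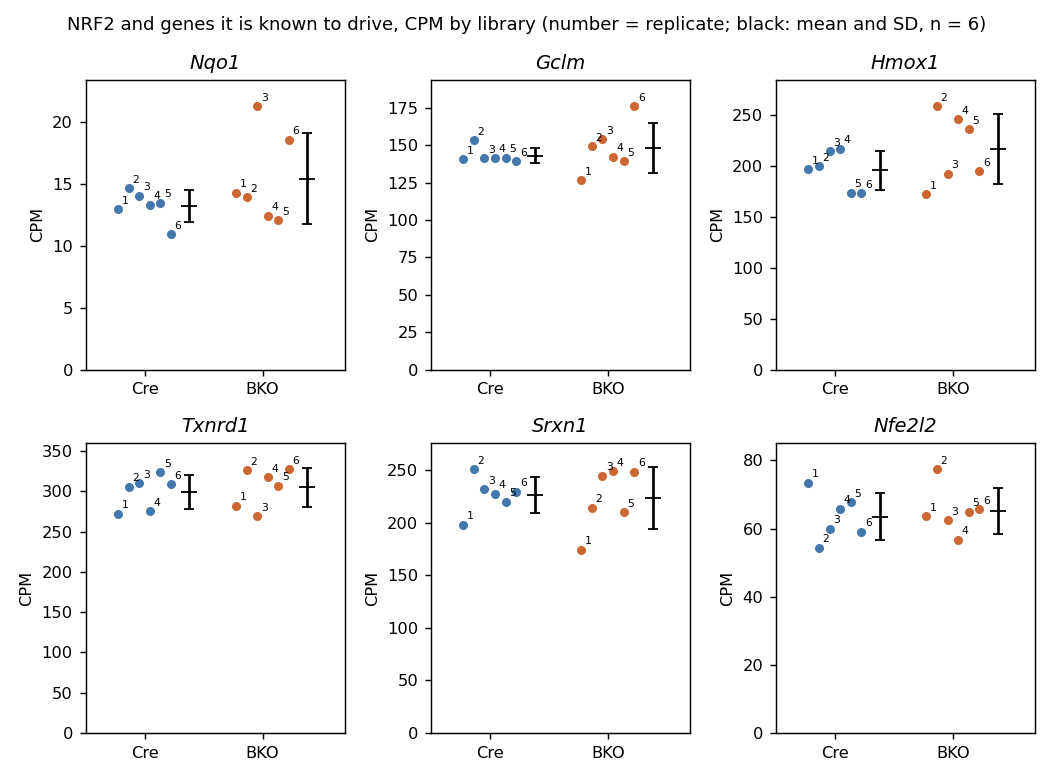
CPM in each library for Nfe2l2 and 5 genes it is known to drive, with replicate numbers beside the points and the mean and SD (n = 6) in black; each axis starts at 0. BKO-3 and BKO-6 lead Nqo1 (21.3 and 18.6 CPM), whereas BKO-2, BKO-4 and BKO-5 lead Hmox1 (259, 246 and 237 CPM).

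Thioredoxin genes held the 1 member with a lower value and an unadjusted p under 0.05. Txn2 encodes mitochondrial thioredoxin, which reduces the mitochondrial peroxiredoxin. It had 84.8 to 100.6 CPM in BKO with a median of 88.0, and 93.3 to 100.8 CPM in Cre with a median of 96.6. Of the BKO libraries 5 lay below the lowest Cre library, and BKO-5 lay near the top of the Cre range. The log2 fold change was -0.11 ± 0.050 (adjusted p = 0.348 by edgeR, 0.236 by DESeq2; exact two-sided permutation p = 0.0281), a fold of 0.926 with an interval of 0.861 to 0.996. Cytosolic thioredoxin Txn1 had a fold of 1.06 (0.970 to 1.15), and the reductases Txnrd1 (cytosolic) and Txnrd2 (mitochondrial) had folds of 1.02 (0.931 to 1.11) and 1.02 (0.906 to 1.16). Txnip, a glucose-induced protein that binds and inhibits thioredoxin, ran from 84.1 to 140.2 CPM in BKO (median 107) and from 95.7 to 130.4 CPM in Cre (median 115), a fold of 0.969 (0.806 to 1.16). Its BKO libraries lay on both sides of the Cre range, and the sign of its difference turned positive without BKO-5 (0.0079).

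Peroxiredoxins, the abundant thiol peroxidases, all had folds between 0.986 and 1.08. Prdx2 had 123.9 to 152.9 CPM in BKO (median 129.6) and 126.3 to 138.6 CPM in Cre (median 133), a fold of 1.00 (0.926 to 1.08), and its sign changed under 16 of the 21 alternative fits. The typical cytosolic Prdx1 had a fold of 1.08 (0.949 to 1.22), the mitochondrial Prdx3 of 1.03 (0.923 to 1.14) and the endoplasmic reticulum form Prdx4 of 1.03 (0.912 to 1.16). Prdx5 had a fold of 1.05 (0.964 to 1.14) and the one-cysteine form Prdx6 of 0.986 (0.913 to 1.07). All 6 intervals lay between 0.8 and 1.25. Sulfiredoxin Srxn1, which repairs overoxidised peroxiredoxins, ran from 174 to 249 CPM in BKO and from 198 to 251 CPM in Cre, a fold of 0.988 (0.878 to 1.11).

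None of the 3 superoxide dismutases, which work in different compartments, passed the test. Sod1 had a fold of 0.969 (0.903 to 1.04). Mitochondrial Sod2 had 115.1 to 147.5 CPM in BKO (median 121) and 108.6 to 120.9 CPM in Cre (median 117), a log2 fold change of 0.12 ± 0.060 (adjusted p = 0.412 by edgeR, exact two-sided permutation p = 0.0714). BKO-2 was its highest library, and the value was 0.051 without it. Extracellular Sod3 had 1.92 to 5.86 CPM in BKO (median 3.13) and 1.81 to 3.53 CPM in Cre (median 2.67), a log2 fold change of 0.41 ± 0.26 (adjusted p = 0.555 by edgeR). BKO-5 and BKO-2 alone exceeded the Cre range, and the value was 0.20 without BKO-5. It was -0.28 once the endothelial score was added to the fit, and 0.30 with the acinar score instead. Catalase ran from 11.7 to 16.8 CPM in BKO and from 11.9 to 16.6 CPM in Cre, a fold of 1.03 (0.878 to 1.20).

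Among the 6 glutathione peroxidases the 2 forms of the endoplasmic reticulum were low and variable. Gpx8 had 1.50 to 4.39 CPM in BKO (median 2.61) and 1.41 to 2.72 CPM in Cre (median 1.70), a log2 fold change of 0.51 ± 0.25 (adjusted p = 0.397 by edgeR, exact two-sided permutation p = 0.102), and 0.33 without BKO-3. Gpx7 had a fold of 1.13 (0.805 to 1.58), with BKO-5 at 3.40 CPM and the other BKO libraries from 1.65 to 2.16 CPM; the sign of its difference turned negative without BKO-5 (-0.0018). Each had between 16 and 48 reads in a library. The gastrointestinal form Gpx2 had 57.1 to 82.5 CPM in BKO (median 76.4) and 55.4 to 71.0 CPM in Cre (median 64.2), a log2 fold change of 0.17 ± 0.093 (adjusted p = 0.457 by edgeR), with 4 BKO libraries above every Cre library. The main cellular peroxidases were close to equal. Gpx1 had a fold of 0.968 (0.880 to 1.06) and Gpx4, which protects membranes from lipid peroxides, of 1.01 (0.922 to 1.10). The log2 fold change of Gpx4 changed sign under 11 of the 21 alternative fits, RLE scaling (-0.0019) among them. Gpx3 ran from 473 to 758 CPM in BKO and from 497 to 766 CPM in Cre, a fold of 1.08 (0.887 to 1.30).

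Most members had a wider spread among BKO libraries, a difference that was not tested. The coefficient of variation was larger in BKO for 27 of the 33 (81.8%), beside 63.8% of all genes tested. Gstm1, Gclm (11.3% against 3.55%) and Nqo1 (23.8% against 9.64%) had wide gaps. Gsta4 went the other way, at 44.8% in BKO and 58.7% in Cre. Exons of 7 members (Txnrd2, Txnip, Gclm, Gss, Prdx2, Prdx5 and Keap1) overlap those of another gene, and no source used here states whether the counting used strand, so their reads cannot be assigned with full certainty.

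Other genes of the pathway were taken from 5 lists, and edgeR called 0 in each. Of 32 tested glutathione enzymes outside the set, 14 were positive and 18 negative, with a median log2 fold change of -0.017. Ggact, which breaks down γ-glutamylamines, had -0.19 ± 0.053 (adjusted p = 0.168 by edgeR, 0.0439 by DESeq2), with 58.2 to 67.9 CPM in BKO and 67.6 to 75.6 CPM in Cre. Only the highest BKO library entered the Cre range. Gsta3, an alpha-class transferase like Gsta4, had 1.30 ± 0.37 (adjusted p = 0.169 by edgeR, 0.0322 by DESeq2), with 2.38 to 7.37 CPM in BKO and 0.662 to 3.35 CPM in Cre. With the endothelial score as covariate Gsta3 was at 0.60 (adjusted p = 0.984 by edgeR) and Ggact at -0.11. With the acinar score instead Gsta3 was at 1.03 and Ggact at -0.19. Without BKO-4, the highest BKO library in Ggact, edgeR gave Ggact an adjusted p of 0.0409, in a fit that called 262 genes in all. Ggt7 had -0.19 ± 0.072 and the theta-class transferase Gstt1 -0.23 ± 0.11. DESeq2 called 3 genes of this list, Gsta3 and Gsta1 higher and Ggact lower, beside 1.50% of all genes to which it gave an adjusted p. Gsta1 was not among the 32 tested by edgeR, so the base of this count differs. The list held 43 genes with a row of counts, and DESeq2 gave some of them no adjusted p.

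Genes that supply NADPH numbered 19, 7 positive and 12 negative with a median of -0.015. Mthfd1, a cytosolic folate enzyme, had 98.4 to 114.5 CPM in BKO and 112.0 to 121.9 CPM in Cre (-0.14 ± 0.047, adjusted p = 0.228 by edgeR). The mitochondrial malic enzyme Me3 had 0.72 ± 0.30 at 1.13 to 4.48 against 0.795 to 2.22 CPM, and 0.47 without BKO-1. The mitochondrial folate enzymes Aldh1l2 and Mthfd2l had -0.14 ± 0.073 and 0.21 ± 0.15. Regulators and further targets of NRF2 numbered 26 tested, 12 positive and 14 negative, with a median of -0.020. The iron exporter Slc40a1 (-0.20 ± 0.062), the carbonyl reductase Cbr1 (-0.21 ± 0.067) and the fatty aldehyde dehydrogenase Aldh3a2 (-0.15 ± 0.052) had negative values and Maff, a small MAF partner of NRF2, a positive one (0.26 ± 0.084), none of them past the test. Without BKO-4, the highest BKO library in both Slc40a1 and Cbr1, edgeR gave adjusted p-values of 0.0311 and 0.0498. Leaving out BKO-4 was bound to make both values more negative, and that fit called 262 genes in all. With the endothelial score as covariate the values were -0.097 for Slc40a1, -0.10 for Cbr1, -0.069 for Aldh3a2 and 0.084 for Maff. Each had an adjusted p of 0.984. With the acinar score instead they were -0.18, -0.18, -0.15 and 0.23 in the same order, none past the test.

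In the list of other thioredoxin, methionine sulfoxide and superoxide genes 8 of 22 were positive and 14 negative, with a median of -0.066. Sepw1, which encodes selenoprotein W, had -0.17 ± 0.070, and Ccs, the copper chaperone that loads Sod1, had -0.15 ± 0.070 at 18.5 to 21.3 CPM in BKO and 19.9 to 24.3 CPM in Cre. The mitochondrial carrier Ucp2 had -0.13 ± 0.068 and the stress-induced Sesn3 -0.15 ± 0.090. Of 16 listed oxidant-producing genes only 6 had enough reads to be tested, 3 positive and 3 negative. Cyba is the membrane subunit shared by NADPH oxidases. It had 6.53 to 13.2 CPM in BKO and 5.03 to 8.07 CPM in Cre (0.54 ± 0.17, adjusted p = 0.197 by edgeR). Its value was -0.023 once the endothelial score entered as covariate, and 0.52 with the acinar score instead. The inducible nitric oxide synthase Nos2 had 0.28 ± 0.24, and 0.15 without BKO-1. Cybb, the catalytic subunit of the phagocyte oxidase, had 0.13 ± 0.25. Rac2, a small GTPase of blood cells that takes part in activating that oxidase, had -0.13 ± 0.27. Markers of macrophages and other leukocytes, of which 7 of 9 tested were negative, summed to 63.9 to 120.0 CPM in BKO and 86.9 to 132 CPM in Cre.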

How the data were processed

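Total RNA of islets was extracted with TRIzol and sequenced as paired-end reads, per the labels' protocols. HISAT2 2.0.5, HTSeq and mm10 are named in the submitters' processing notes; no source used here gives the version of HTSeq, its annotation or its strand mode. The deposited values used are raw read counts per gene symbol for 24421 genes. The 5 summary lines of the counter name no gene, held on average 37.2% (BKO) and 38.3% (Cre) of all counted reads, and were left out of library sizes and tests. The series-wide deposited table, which is scaled to the same total (CPM) in every column, was not used here. No 2 libraries held identical counts.

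Tests were made with edgeR 4.0.16 in R 4.3.3: filterByExpr, TMM scaling, a robust glmQLFit, glmQLFTest, and p-values adjusted by Benjamini-Hochberg across 13583 genes (threshold 0.05). CPM uses TMM-scaled library sizes. SE is the fold change divided by the root of the F statistic, and 95% intervals use the fit's degrees of freedom. Exact permutation tests cover 924 splits of log2(CPM + 0.5), so that the smallest p possible is 0.00216; permutation p-values were not adjusted. Lengths and coordinates come from GENCODE M21 (GRCm38, which is mm10). The fit was tested on simulated data. The members and lists were chosen with earlier results of these data known. Named genes are the 12 members with the smallest p and up to 4 per pathway list; all members' values are given. One gene of a pathway list is not reported here, and was taken out of that list and its counts; the next gene by p took its place among the named genes. Alternatives were RLE scaling, TMM without acinar markers, no or a strict count filter (10 reads in every library), DESeq2 1.42.0, limma-voom (limma 3.58.1), the replicate number as a block, endothelial or acinar scores as covariates, a threshold of 0.1, and each library left out. Gstp3 could not be matched to a row, and the selenoprotein genes were matched by their older symbols.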

Additional observations from a re-analysis of the deposited data

Results flagged for a closer look

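Among 66 groups of 6 libraries (33 genes in each genotype), 3 had an end library set apart from the other 5 by more than 0.625 of the group's range, a limit that chance passes in about 1 of 20 groups. Gpx7 was at 3.40 CPM in BKO-5, with the next BKO library at 2.16 CPM. Txnrd2 was at 11.7 CPM in Cre-5, with the next Cre library at 13.9 CPM. Gclm was at 153 CPM in Cre-2, with the next Cre library at 142 CPM.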

How the results depend on the processing

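The labels do not say that replicate numbers pair libraries, and same-numbered libraries deviated together (correlation over 0.1) in 4 of 6 numbers. For numbers 1, 4 and 6 the best match of each library in the other group was the library of the same number. For number 5 this held for the BKO library only, and for numbers 2 and 3 for neither. Pairing was thus not settled, and none was assumed. With the replicate number as a block edgeR called 364 genes (292 higher), 1 member (Gsta4, adjusted p = 0.0238) and 1 other glutathione enzyme (Gsta3). DESeq2 called 214 genes, 1 member and 3 other glutathione enzymes. Leaving out single libraries gave 0 to 262 genes, the highest without BKO-4; 0 to 1 members; 0 to 2 NRF2 regulators and other targets; and 0 to 1 other glutathione enzymes. The count of genes was 110 without Cre-5, 5 without BKO-3 and 6 without Cre-1. The other settings and the threshold of 0.1 called 0 genes. The median of the members ran from 0.021 to 0.051 with a library left out.

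Of 53 single genes, 18 changed sign somewhere, none of them past the threshold. Prdx2 was at -0.00893 (RLE), -0.0121 (no filter), -0.00411 (strict filter), -0.0114 (DESeq2), -0.00981 (limma-voom) and -0.00169 (replicate block). Gpx4 was at -0.00188, -0.00505, -0.00449 and -0.00477 with RLE, no filter, DESeq2 and limma-voom, and at -0.0323 with the acinar score, where Txnip was at 0.0207. Limma-voom gave Prdx6 0.00321. With the endothelial score Sod3 was at -0.281, Cyba -0.0232, Cat -0.165, Gpx3 -0.0243, Gpx7 -0.268, Txn1 -0.0121, Txnrd1 -0.0901, Txnip 0.13, Srxn1 0.00933 and Nfe2l2 -0.118. Ranges with 1 library left out were -0.028 to 0.098 (Cat), -0.033 to 0.015 (Gpx4), -0.0018 to 0.26 (Gpx7), -0.017 to 0.059 (Txnrd1), -0.0094 to 0.044 (Txnrd2), -0.13 to 0.0079 (Txnip), -0.022 to 0.084 (Gclm), -0.049 to 0.013 (Prdx2), -0.014 to 0.063 (Prdx3), -0.013 to 0.070 (Prdx4), -0.070 to 0.037 (Srxn1), -0.031 to 0.068 (Nfe2l2) and -0.25 to 0.011 (Rac2). The cause was not tested. Gsta4 and Gsta3 were not tested under the strict filter. Depth limits the low members, Gsta4, Gpx7, Gpx8 and Sod3.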

Other observations

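A further alpha-class glutathione transferase, Gsta1, fell under the filter on low counts and was looked at after the values of Gsta3 and Gsta4 had been seen. It had 0.784 to 2.84 CPM in BKO (median 1.28) and 0.0828 to 1.19 CPM in Cre (median 0.380), with at most 30 reads in a library (exact two-sided permutation p = 0.00866, not adjusted). Gsta1 and Gsta2 are near copies, and Gsta2 had at most 5 reads in any library, so the split of reads between them is uncertain. Of other mu-class genes, Gstm5 ran from 11.1 to 14.8 CPM in BKO and from 11.8 to 15.7 CPM in Cre, and Gstm4 from 12.5 to 17.8 CPM and from 14.4 to 19.2 CPM. Of the mu-class genes with a test, Gstm2 (0.13 ± 0.16) was positive and Gstm3, Gstm4, Gstm5 and Gstm7 were negative, none past the test.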
